A study of Mus musculus with 6 samples.

Results

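Collagens are the main structural proteins of the extracellular matrix, and the collagen genes examined here are the protein-coding genes whose symbol is Col, a type number, the letter a and a chain number. The pattern picked 44 of the 45777 genes listed, of which 35 had reads in at least 1 liver library and 9 had none. Liver RNA was sequenced from male C57BL/6 mice on a high-fat diet (HFD, 60% of energy from fat, started at 8 weeks of age), with 3 littermate controls (LT; Fpn flox/flox) and 3 Fpn-LKO mice (Alb-Cre; Fpn flox/flox), 1 library per mouse. Both genotypes carry the floxed allele of the iron exporter ferroportin, and the albumin promoter drives Cre in hepatocytes, so the other cells of the liver keep the gene. The time on the diet before the livers of these 6 mice were taken was not given in the sources used here. The comparison asked which collagen transcripts differed between HFD-fed livers with and without the hepatocyte deletion.

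Collagen chains wind together into triple helices, and the type decides what they build. Fibrillar types I, III and V form the rope-like fibrils of scar tissue, type IV forms the sheet of basement membranes, type VI forms beaded filaments, and multiplexins such as type XVIII lie in basement membranes around vessels and sinusoids. In the liver, stellate cells and portal fibroblasts are the best-known sources of fibrillar collagen, and its accumulation is what defines fibrosis. A bulk library cannot tell fewer cells of a type from less RNA per cell.

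The 250 bases before the transcript start are shown for 3 members, chosen by their level or unadjusted p-value in these data. Col3a1, the type III chain, had the highest mean level of the fibrillar chains, and Col27a1 and Col6a5 were the members with an unadjusted p-value under 0.05. The sequences are those of RefSeq on GRCm38.p6, read 5′ to 3′ on the gene's own strand. They lie at chr1:45311288-45311537 (plus strand) for Col3a1, at chr4:63215162-63215411 (plus strand) for Col27a1 and at chr9:105960644-105960893 (minus strand) for Col6a5. None overlapped an annotated exon, and the windows of Col27a1 and Col6a5 lie inside the span of the gene, upstream of one of its several annotated starts. Capitals mark a TATAAA in Col3a1 and a GGGCGG in the other 2.
Col3a1: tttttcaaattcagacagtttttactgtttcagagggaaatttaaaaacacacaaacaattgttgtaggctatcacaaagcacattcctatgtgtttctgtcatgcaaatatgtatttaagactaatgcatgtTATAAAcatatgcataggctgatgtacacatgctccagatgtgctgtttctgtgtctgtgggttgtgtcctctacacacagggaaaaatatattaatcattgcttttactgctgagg
Col27a1: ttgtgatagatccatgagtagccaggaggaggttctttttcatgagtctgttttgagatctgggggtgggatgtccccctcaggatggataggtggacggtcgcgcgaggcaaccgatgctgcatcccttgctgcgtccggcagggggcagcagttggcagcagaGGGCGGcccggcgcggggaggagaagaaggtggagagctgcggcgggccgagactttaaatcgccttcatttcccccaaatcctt
Col6a5: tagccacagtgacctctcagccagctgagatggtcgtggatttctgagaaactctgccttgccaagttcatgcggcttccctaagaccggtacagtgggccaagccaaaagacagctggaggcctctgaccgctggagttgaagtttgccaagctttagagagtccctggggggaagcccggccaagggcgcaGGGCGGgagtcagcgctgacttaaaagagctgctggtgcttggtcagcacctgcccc
The TATAAA of Col3a1 began at position -117 relative to the start, and the window held 35.2% G and C, against 59.6% for Col27a1 and 58.8% for Col6a5. Promoter windows were found for 35 of the 44 collagen genes, 38 windows in all. On either strand, TATAAA was present in 5 of the 38 windows (13.2%) and in 12.4% of all 32851 promoters. CCAAT, the letters of another common promoter element, was in 34.2% of the collagen windows and 33.8% of all, and GGGCGG in 57.9% and 32.7%. These matches describe letters in a window and say nothing of what binds there.

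The total counts lay between 43086184 and 47778683 per library, and collagen genes took 20583 to 31120 of those reads. Slc40a1, which encodes ferroportin, stood at 154, 180 and 126 CPM (reads relative to a library size scaled by the TMM method) in LT. The libraries labelled Fpn-LKO held 143, 143 and 176 CPM. Its transcript was therefore not lower under that label (log2 fold change 0.0073, standard error 0.16, adjusted p = 0.995), and each direction below rests on the labels. A count over the whole gene also holds reads of a transcript that lacks only the floxed part, and which exons are floxed was not given in the sources used here, so the count does not check the deletion. Hepatocyte markers dominated all 6 libraries, with Alb at 38070 to 48160 CPM. The 4 adipocyte markers had no read, and the 4 mesothelial markers summed to at most 0.566 CPM. The short noncoding RNAs Rn7s1, Rn7s2, Rn7sk, Rpph1 and Rmrp together took 7.65% to 8.76% of the counts in LT and 10.2%, 3.29% and 4.49% in Fpn-LKO replicates 1 to 3.

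Levels of different genes are compared here by the deposited TPM, which is scaled to transcript length. Col18a1, whose C-terminal fragment is endostatin, had by far the highest level of the collagen genes. Its mean over the 6 libraries was 86.9 TPM, and it held 66.9% to 70.5% of the summed collagen TPM in each library. Col14a1, a fibril-associated collagen, followed with a mean of 11.2 TPM. Next came Col3a1 (4.97 TPM), Col27a1 (4.67 TPM), a fibrillar collagen best known from cartilage, and Col4a1 (3.92 TPM), a chain of basement membranes. Apart from these, Col13a1, Col5a3, Col6a1, Col4a2, Col1a2, Col6a3 and Col5a1 had mean levels between 1.04 and 1.85 TPM, so 12 members reached 1 TPM and 2 reached 10. The ranges over the libraries of Col3a1, Col27a1 and Col4a1 overlapped, as did those of each pair of neighbours among the 7 genes after them. Such overlap does not settle their order, because the genes were read in the same libraries, and the order was not tested. The other 23 members with reads had mean levels under 1 TPM.

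**Figure D1:**
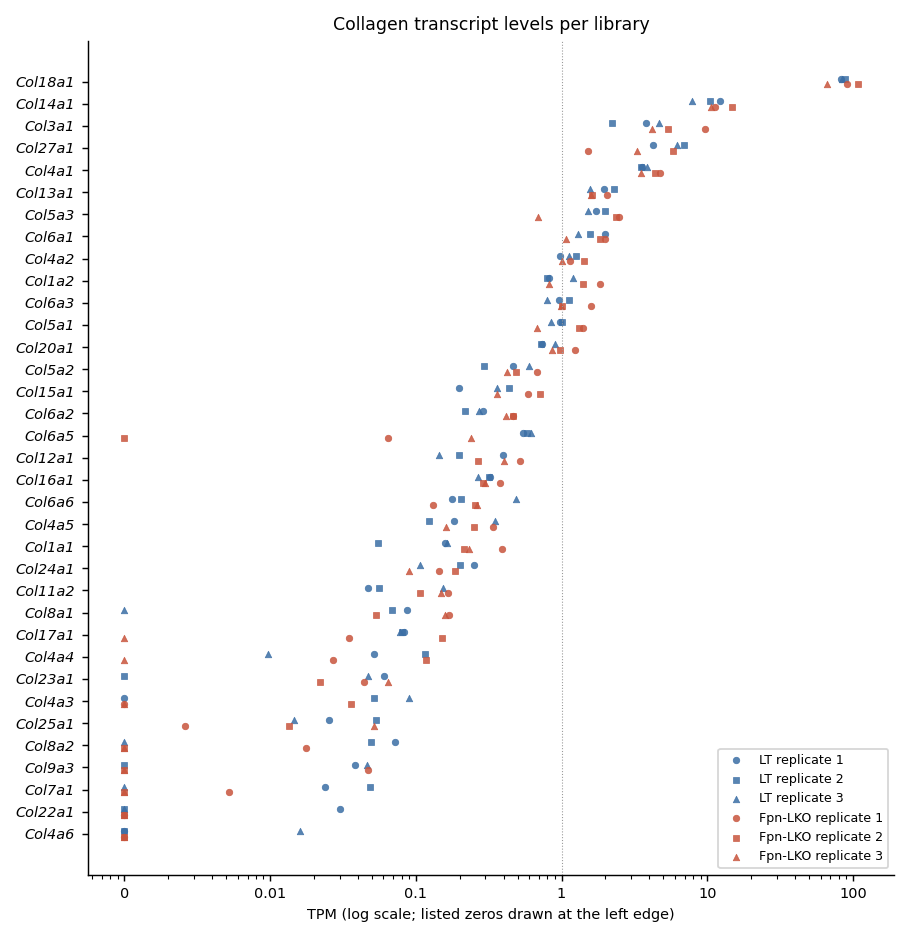
Level of each of the 35 collagen genes with reads, in TPM on a log axis, with 1 point per library, circles, squares and triangles for replicates 1, 2 and 3, LT in blue and Fpn-LKO in red. Values listed at 0 are drawn at the left edge and the dotted line marks 1 TPM; Col18a1 lies apart from all others, at a mean of 86.9 TPM.

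The chains of a heterotrimer did not have equal transcript levels. Type I collagen is built from 2 chains of Col1a1 and 1 of Col1a2, yet Col1a2 had the higher level in every library, by a ratio of 3.53 to 14.6 in TPM. Col3a1 was 18.2 to 40.4 times the level of Col1a1. Both ratios rest on 12 to 90 reads of Col1a1 per library, and both were highest in LT replicate 2, which had 12. Col4a1 was 2.81 to 4.13 times that of Col4a2, its partner in the common type IV trimer, which is transcribed from the same promoter region in the opposite direction. The ratio of Col6a1 to Col6a2 was 6.88, 7.25 and 4.80 in LT and 4.32, 3.96 and 2.56 in Fpn-LKO, without overlap, and no test was made of it. All other ratios examined overlapped between the genotypes. Among them was Col6a3 to Col6a2, at 3.32, 5.23 and 2.94 in LT and 3.44, 2.16 and 2.39 in Fpn-LKO. How often the ratios of other gene pairs separate was not examined.

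No read was listed for Col2a1, Col9a1, Col9a2 or Col11a1, which are chains of cartilage fibrils, nor for Col10a1 of hypertrophic cartilage. The same held for Col6a4, Col19a1, Col26a1 and Col28a1. At these depths, a count of 0 allows up to 3 counts per library, which is 0.0603 to 0.0725 CPM and covers counting error only. Another 6 members had reads in too few libraries to be tested, at most 28 in any library. They were Col4a3 and Col4a6, chains of specialised basement membranes, Col7a1 of the anchoring fibrils of skin, Col8a2, Col9a3 and Col22a1. The remaining 29 were tested, and 24 of them had reads in all 6 libraries.

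After Benjamini-Hochberg adjustment over the 17274 genes that edgeR's quasi-likelihood test covered, none of the 29 collagen genes was under the threshold of 0.05, which 0.0232% of all genes passed. The adjusted p-values of the members lay between 0.982 and 0.999. Members with an unadjusted p-value under 0.05 were Col27a1 and Col6a5, 2 of 29, which is 6.90% beside 4.80% of all genes tested. Both were lower in the libraries labelled Fpn-LKO, as were 2.19% of all genes at that threshold, and 2.62% were higher. The log2 fold change was above 0 for 18 members and below 0 for 11 (62.1% above 0, against 49.4% of all genes). Its median was 0.10, against -0.0040 for all genes tested. Between the genotypes, 3 members did not overlap, which is 10.3% beside 10.6% of all genes. Of these, Col1a1 and Col6a2 were higher in Fpn-LKO (5.25% of all genes were) and Col6a5 lower (5.34% of all genes were).

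**Figure D2:**
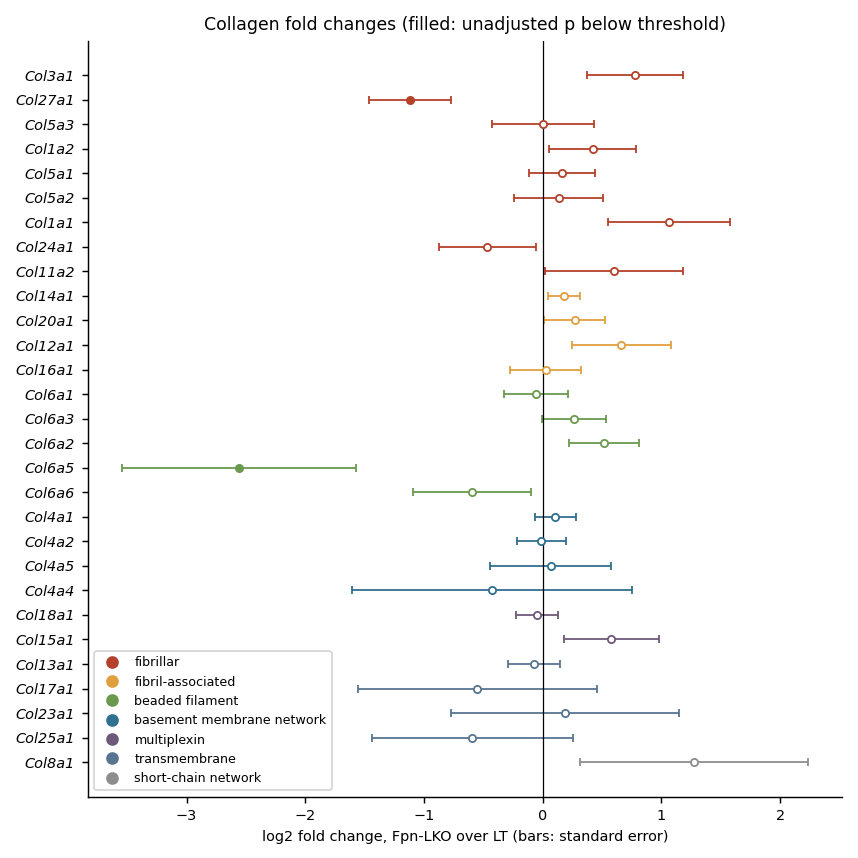
Fitted log2 fold change of Fpn-LKO over LT for the 29 collagen genes tested, with bars of 1 standard error, coloured by structural class. Filled points mark an unadjusted p-value under 0.05, which are Col27a1 at -1.12 and Col6a5 at -2.56.

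Among the fibrillar chains, Col3a1 had 15.1, 9.81 and 22.4 CPM for LT against 43.2, 20.05 and 17.7 CPM for Fpn-LKO. Fpn-LKO replicate 1 was highest by a wide margin, while replicates 2 and 3 lay within the LT range. The log2 fold change was 0.78 (standard error 0.41, adjusted p = 0.982) and came to 0.26 without Fpn-LKO replicate 1. Col1a2, a chain of type I, had 3.07, 3.35 and 5.49 CPM for LT against 7.76, 4.93 and 3.23 CPM for Fpn-LKO. Again replicate 1 was highest and the groups overlapped (log2 fold change 0.42, standard error 0.37, adjusted p = 0.985; 0.042 without that library). Col1a1, the major chain of type I, had 0.683, 0.277 and 0.846 CPM for LT against 1.89, 0.857 and 1.03 CPM for Fpn-LKO. The groups did not overlap, but the highest LT value and the lowest Fpn-LKO value were nearly equal.

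The type V chains, which set the diameter of fibrils, overlapped between the genotypes. Col5a3 had 7.73, 9.98 and 8.36 CPM for LT against 12.8, 10.1 and 3.30 CPM for Fpn-LKO, where replicates 1 and 3 were the highest and the lowest of the 6 (log2 fold change 0.0051, standard error 0.43, adjusted p = 0.999). Col5a1 ranged from 4.33 to 9.48 CPM and Col5a2 from 1.57 to 3.63 CPM, each highest in Fpn-LKO replicate 1. Col11a2 and Col24a1, low in liver, stayed between 0.241 and 1.29 CPM. The 6 genes of types I, III and V summed to 34.6, 31.8 and 46.7 CPM for LT against 78.7, 45.2 and 31.7 CPM for Fpn-LKO, so that Fpn-LKO replicate 1 was the highest library and Fpn-LKO replicate 3 was level with the lowest LT library. The log2 ratio of the group means was 0.46, and 0.029 without Fpn-LKO replicate 1.

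Col27a1 went the other way. It had 21.6, 39.4 and 39.2 CPM for LT against 9.45, 22.4 and 14.3 CPM for Fpn-LKO. All Fpn-LKO libraries were below LT replicates 2 and 3, and Fpn-LKO replicate 2 lay just above LT replicate 1, so the groups overlapped. The log2 fold change was -1.12 (standard error 0.35; adjusted p = 0.982, and 0.144 to 1.00 over the alternatives). It lay between -1.49 and -0.86 when any 1 library was left out. With limma it was -0.67 on log2(TPM + 1) and -0.85 on log2(TPM + 0.1), and the unadjusted p-value was then above 0.05. No other gene shared an exon or a stretch of 100 identical transcript bases with Col27a1, which spans chromosome 4 from 63214009 to 63334991.

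Fibril-associated collagens sit on the surface of fibrils. Col14a1 had 55.5, 53.8 and 43.8 CPM for LT against 59.0, 62.9 and 51.2 CPM for Fpn-LKO (fitted log2 fold change 0.18, standard error 0.13, adjusted p = 0.982). The groups overlapped only through Fpn-LKO replicate 3. Col20a1 ranged from 3.88 to 7.30 CPM, Col12a1 from 1.47 to 4.93 CPM and Col16a1 from 1.07 to 1.66 CPM, each highest in Fpn-LKO replicate 1. All 4 of these fitted log2 fold changes were above 0.

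Of the type VI chains, Col6a5 had 3.60, 4.32 and 4.98 CPM for LT against 0.482, 0 and 1.70 CPM for Fpn-LKO. Every Fpn-LKO library was below every LT library. The log2 fold change was -2.56 (standard error 0.99, adjusted p = 0.982). The unadjusted p-value rose past 0.05 with DESeq2 and when LT replicate 1, 2 or 3 or Fpn-LKO replicate 1 was left out. Leaving out Fpn-LKO replicate 3, the highest of its group, moved the log2 fold change to -4.13. Col6a5 (chromosome 9, 105856070 to 105962463) lies beside Col6a6, and 2.42% of the 100-base words in its transcript also occur in Col6a6. Reads of the pair could have been split between them, and their values are uncertain to that extent.

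Col6a6 had 0.904, 1.18 and 2.90 CPM for LT against 0.755, 1.20 and 1.34 CPM for Fpn-LKO, with LT replicate 3 apart from the rest. Col6a1, Col6a2 and Col6a3 encode the chains of the common type VI trimer. Col6a1 had 5.62, 5.01 and 4.52 CPM for LT against 6.44, 4.90 and 3.23 CPM for Fpn-LKO, with the highest and the lowest value both in Fpn-LKO (fitted log2 fold change -0.057, standard error 0.27, adjusted p = 0.995). Col6a2 had 1.02, 0.877 and 1.02 CPM for LT against 1.64, 1.18 and 1.36 CPM for Fpn-LKO, with no overlap. Col6a3 ranged from 7.23 to 13.9 CPM and was highest in Fpn-LKO replicate 1.

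Of the basement membrane collagens, no chain passed a threshold. Col4a1 had 16.9, 18.6 and 22.1 CPM for LT against 25.1, 19.2 and 17.5 CPM for Fpn-LKO (fitted log2 fold change 0.10, standard error 0.17, adjusted p = 0.995). Col4a2 had 4.48, 6.47 and 6.33 CPM for LT against 5.95, 6.19 and 4.96 CPM for Fpn-LKO (fitted log2 fold change -0.014, standard error 0.21, adjusted p = 0.995). The groups of both genes overlapped. Col4a5 stayed between 0.670 and 2.01 CPM and Col4a4 between 0 and 0.831 CPM.

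Col18a1 had 339, 405 and 418 CPM for LT against 424, 411 and 289 CPM for Fpn-LKO (fitted log2 fold change -0.048, standard error 0.18, adjusted p = 0.995). The lowest library was Fpn-LKO replicate 3, and the other 2 of that genotype lay close to the upper LT libraries. Col15a1, the other multiplexin, ranged from 0.763 to 2.36 CPM. Col13a1, a transmembrane collagen, had 4.70, 6.33 and 4.28 CPM for LT against 5.64, 4.30 and 4.57 CPM for Fpn-LKO, with full overlap (log2 fold change -0.076, standard error 0.22, adjusted p = 0.995). The other transmembrane collagens, Col17a1, Col23a1 and Col25a1, and Col8a1 of the short-chain networks stayed at or under 0.713 CPM.

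**Figure D3:**
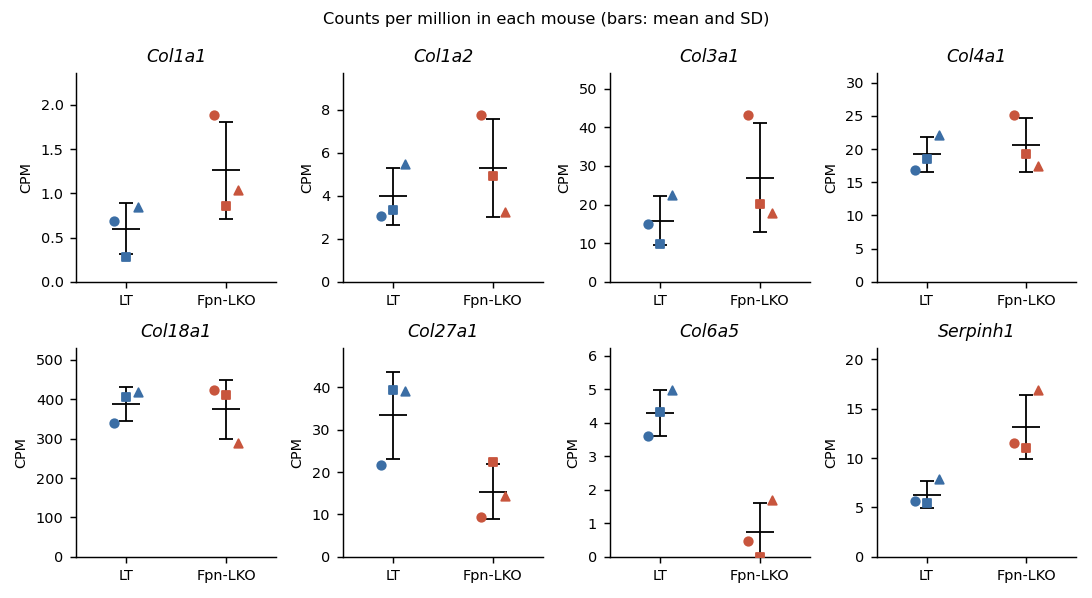
CPM of 7 collagen genes and of Serpinh1 in each mouse, on linear axes from 0, with circles, squares and triangles for replicates 1, 2 and 3 and bars for the mean and SD of 3 mice. Col3a1 reaches 43.2 CPM in Fpn-LKO replicate 1, Col27a1 and Col6a5 lie low in Fpn-LKO, and Serpinh1 lies at 5.43 to 7.88 CPM in LT and 11.0 to 16.9 CPM in Fpn-LKO.

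The summed level of the whole set overlapped between the genotypes and was 508.6, 596.7 and 617.2 CPM for LT against 652, 600 and 444 CPM for Fpn-LKO. On average this was 574 ± 57.7 and 565 ± 109 CPM (SD, n = 3 each), and the sum is mostly Col18a1. The sums of every structural class overlapped between the genotypes. Fpn-LKO replicate 1 was the highest library for 16 of the 29 members tested, including 7 of the 9 fibrillar genes, whereas it was the highest for 18.3% of all genes tested. Without that library the median log2 fold change of the members was -0.085, and 7 members changed sign. The 9 fibrillar genes then had a median of -0.13 in place of 0.16. Fpn-LKO replicate 3 was lowest for 7 members, as was LT replicate 1, and the share of all genes lowest in each library was not computed. Without Fpn-LKO replicate 3 the median of the 29 was 0.26, and without LT replicate 1 it was 0.028.

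**Figure D4:**
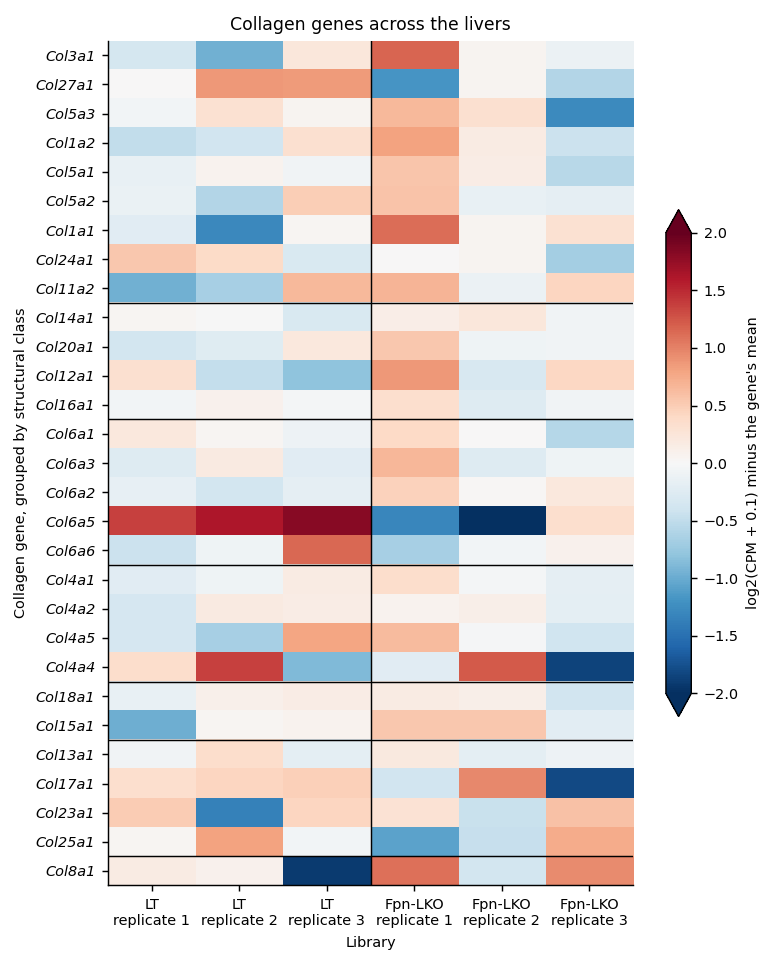
Level of the 29 collagen genes tested in each library, as log2(CPM + 0.1) minus the gene's mean over the 6 libraries, red above and blue below, with lines between structural classes in the order fibrillar, fibril-associated, beaded filament, basement membrane, multiplexin, transmembrane and short-chain. The column of Fpn-LKO replicate 1 is the highest for 16 of the 29 genes.

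Markers of the cells that make or border collagen were set beside these values. Over the 5 portal fibroblast markers, the summed level was 13.2 to 16.4 CPM in LT and 16.9 to 25.8 CPM in Fpn-LKO, without overlap and highest in Fpn-LKO replicate 1. Most of it was Gas6, which overlapped between the genotypes. The 6 markers of activated myofibroblasts summed to 27.3 to 29.9 CPM in LT and to 41.8, 24.9 and 22.7 CPM in Fpn-LKO replicates 1 to 3. Most of that sum was Lum and Postn. Lum had 8.22 to 11.75 CPM for LT against 13.88, 11.65 and 12.09 CPM for Fpn-LKO. Postn had 14.69 to 16.85 CPM for LT against 21.72, 12.23 and 9.16 CPM for Fpn-LKO. Acta2, smooth muscle actin, had 0.798 to 1.18 CPM for LT against 3.63, 0.386 and 0.474 CPM for Fpn-LKO, and Cthrc1 had no read. Replicate 1 of Fpn-LKO was thus highest for both marker sums and for 7 of the 9 fibrillar genes tested, but lowest for Col27a1. The part of either cell type in the collagen values was not tested.

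The 9 stellate cell markers summed to 280 to 310 CPM in LT and 283 to 341 CPM in Fpn-LKO. Among them Hhip, an antagonist of hedgehog ligands, had an unadjusted p-value under 0.05, with 13.9, 16.8 and 11.4 CPM for LT against 5.39, 10.3 and 8.69 CPM for Fpn-LKO (adjusted p = 0.982). It lost that threshold without LT replicate 2 and with limma on log2(TPM + 1) or log2(TPM + 0.1). The limma log2 fold changes were -0.34 and -0.54, on scales that are not that of the edgeR value of -0.79. The 6 sinusoidal endothelial markers summed to 257 to 311 CPM in LT and 231 to 249 CPM in Fpn-LKO, lower without overlap. Each of the 6 overlapped singly, and how often such a sum separates was not examined. In that list Lyve1 alone had an unadjusted p-value under 0.05 and lay the other way, with 1.07, 2.89 and 1.57 CPM for LT against 3.96, 2.06 and 7.59 CPM for Fpn-LKO (adjusted p = 0.982), but it lost that threshold with the replicate block and when LT replicate 1 or 3 or Fpn-LKO replicate 1 or 3 was left out. Cholangiocyte markers summed to 12.8, 12.8 and 84.4 CPM in LT, nearly all Spp1 in LT replicate 3, and to 21.0 to 29.9 CPM in Fpn-LKO. Of the 4 exocrine pancreas markers, 3 had no read and Cela1 had 10.4 to 27.0 CPM.

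The genes that modify, fold, secrete, cut and bind collagen were examined as 7 companion lists, of which 81 genes were tested. None had an adjusted p-value under 0.05. The unadjusted threshold of 0.05 was passed by 4, each of them higher in Fpn-LKO. This is 4.94% beside 4.80% of all genes in either direction, and 2.62% of all genes were higher at that threshold. The number in either direction is near the background and is no result about collagen-handling genes. Their common direction was not tested. The first of the 4 is Serpinh1, the HSP47 chaperone that binds procollagen in the endoplasmic reticulum. It had 5.60, 5.43 and 7.88 CPM for LT against 11.5, 11.0 and 16.9 CPM for Fpn-LKO, so every Fpn-LKO library was above every LT library. The log2 fold change was 1.06 (standard error 0.23, adjusted p = 0.649 with edgeR's quasi-likelihood test). The adjusted p was 0.00960 with DESeq2 and 0.0301 with exactTest, and it ranged from 0.00960 to 1.00 over all alternatives.

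P4ha2, a catalytic subunit of the prolyl hydroxylase that stabilises the triple helix, had 2.89, 4.32 and 5.41 CPM for LT against 6.39, 7.24 and 8.13 CPM for Fpn-LKO, without overlap (log2 fold change 0.79, standard error 0.25, adjusted p = 0.982). Plod3, a lysyl hydroxylase that also adds sugars, had 12.98, 14.7 and 16.9 CPM for LT against 16.7, 19.8 and 21.1 CPM for Fpn-LKO (fitted log2 fold change 0.37, standard error 0.15, adjusted p = 0.982). Its groups overlapped through LT replicate 3. In the same list P4hb, the shared subunit, was at 1013 to 1452 CPM and P4ha1 at 16.4 to 46.1 CPM, both overlapping. Of the 13 hydroxylation genes tested, 2 passed the unadjusted threshold that 4.80% of all genes passed, and the median log2 fold change was 0.088. The shares of the single lists rest on few genes each.

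Folding and secretion had 1 of 8 genes past that threshold, Serpinh1, and a median of -0.097. Ppib, a prolyl isomerase, and Mia3, which loads collagen for export, overlapped between the genotypes, at 174 to 291 CPM and 228 to 314 CPM. For processing and crosslinking, 0 of 12 passed and the median was 0.11. Bmp1, the procollagen C-proteinase, was lowest in Fpn-LKO replicate 3 at 50.7 CPM and at 73.8 to 91.3 CPM in the other 5 libraries. For degradation, 0 of 8 passed and the median was 0.23, and the list summed to 35.9 to 41.7 CPM in LT and 42.1 to 47.5 CPM in Fpn-LKO, without overlap. Timp3, an inhibitor of metalloproteinases, Mmp14, a membrane collagenase, and the other degradation genes tested each overlapped. How often the sums of other gene lists separate was not examined.

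Of the collagen receptors, 0 of 7 passed, with a median of 0.075. Itgb1, the integrin chain shared by the collagen-binding integrins, was at 169 to 216 CPM. Of the collagen-binding matrix proteins, 0 of 17 passed, with a median of 0.069, and Dcn, which coats fibrils, was at 155 to 202 CPM. Of the TGF-beta and PDGF genes, 1 of 16 passed, with a median of 0.064. This was Pdgfrb, the PDGF receptor of stellate cells, with 5.50, 5.66 and 5.08 CPM for LT against 9.37, 6.23 and 6.92 CPM for Fpn-LKO (fitted log2 fold change 0.47, standard error 0.20, adjusted p = 0.982). Its groups did not overlap and replicate 1 of Fpn-LKO was highest. Serpinh1 and P4ha2 stayed under the unadjusted threshold whichever library was left out. Among these omissions Pdgfrb did so only without Fpn-LKO replicate 2, and Plod3 only without LT replicate 3 or Fpn-LKO replicate 1.

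**Figure D5:**
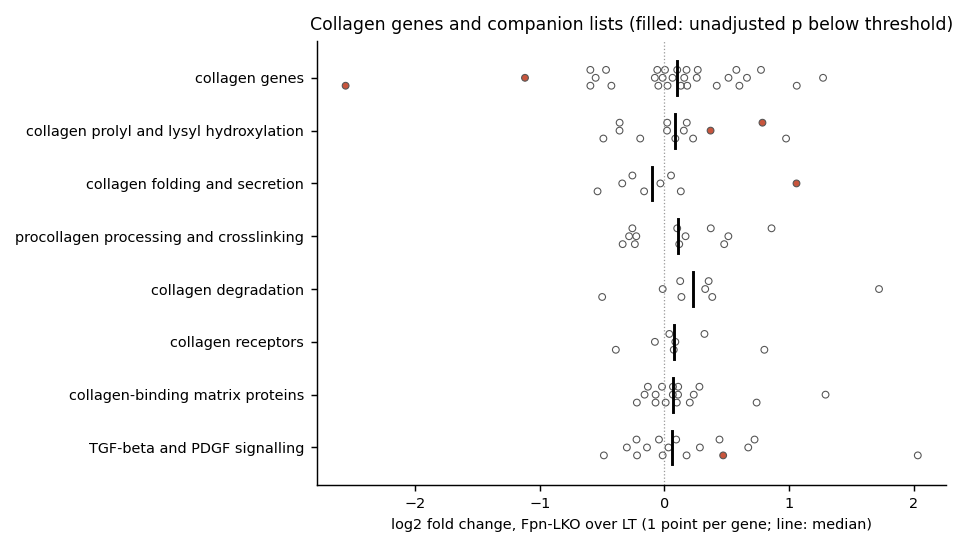
Fitted log2 fold change of Fpn-LKO over LT, with 1 point per tested gene, for the 29 collagen genes and the 7 companion lists, where black lines are medians and filled points have an unadjusted p-value under 0.05. The list medians lie between -0.097 and 0.23, and the 4 filled companion points, Serpinh1, P4ha2, Plod3 and Pdgfrb, lie above 0 while the 2 filled collagen points lie below.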

How the data were processed

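Liver RNA of 6 HFD-fed mice, 3 per genotype by the sample titles, was sequenced with 1 library per mouse. The methods describe ribosomal RNA removal, whereas the labels give a stranded mRNA kit, and whether strand was used in counting is not given in the sources used here. The authors deposited read counts per gene, unnormalized, from reads aligned to mm10. The submitters' processing notes list bcl2fastq 2.20.0, FastQC 0.11.7, HISAT2 2.1.0, Bowtie2 2.3.4.1 and StringTie 2.1.3b. FPKM (relative to transcript length and depth) and TPM (relative to length, with 1 total for all libraries) were also deposited by the authors. For all 29 members tested, the ratio of count to FPKM varied by no more than 0.5 (log2) among the libraries. It varied most for Col25a1 (0.498), Col6a2 (0.412) and Col27a1 (0.41), and by 0.016 for Col6a5.

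The quasi-likelihood test of edgeR 4.0.16 (R 4.3.3) was applied to TMM-scaled counts of the 17274 genes that lacked reads in at most 1 library, with Benjamini-Hochberg adjustment and a threshold of 0.05. All adjusted p-values are from this test unless another is named. The study's methods name exactTest, an alternative here. Standard errors were derived from the F statistic. The tests were tried on simulated data. With 3 mice against 3, an exact permutation test cannot give a p-value below 0.1. No pair of libraries of a genotype agreed within sampling noise (chi-square per degree of freedom 65.8 to 322).

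The alternatives were DESeq2 1.42.0, exactTest, RLE size factors, filterByExpr, no filter beyond 1 read, a block for the replicate number, limma 3.58.1 on log2 TPM with a pseudocount of 1 or 0.1 (genes averaging 1 TPM or more), and the omission of each library. The members and lists were chosen with earlier results of these data known. Every collagen gene could be named. Fold changes are given for the 10 with the highest mean TPM and those with an unadjusted p-value under 0.05, and companion and marker genes are those with such a p-value or among the 4 highest by TPM. Cthrc1 was named for having no read. Coordinates and promoters are from RefSeq on GRCm38.p6, and shared stretches were searched among GENCODE transcripts with BLAST 2.17.0 and by 100-base words.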

Additional observations from a re-analysis of the deposited data

How the results depend on the processing

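No collagen gene passed the adjusted threshold under any alternative run, with edgeR, DESeq2, exactTest or limma. The number with an unadjusted p-value under 0.05 was 2 (Col27a1 and Col6a5) with RLE size factors, exactTest, both other filters and the replicate block, and 2 (Col27a1 and Col3a1) with DESeq2. It was 1 with limma on log2(TPM + 1), which was Col3a1, and 0 with log2(TPM + 0.1), where 12 members were tested and Col6a5 was not among them. It was 1 to 3 when 1 library was left out, and Col27a1 was among them each time. Over all genes, limma's median fold change was 0.083 and 0.097 (log2), so TPM values are shifted upwards by that much. The summed collagen CPM had a log2 ratio of -0.022, and the fibrillar genes without Col27a1, a sum chosen after seeing the data, had 0.44, which came to 0.021 without Fpn-LKO replicate 1. The sum of all members without Col18a1, also chosen then, had 0.030.

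Signs of small fold changes were not stable. With the replicate block Col5a3 was at -0.18. With limma Col18a1 was at 0.028 under both pseudocounts, Col5a3 at -0.0085 and -0.087, and Col4a2 at 0.050 and 0.084. Limma's medians over all genes were 0.083 and 0.097. Col18a1 and Col4a2 stayed below these medians, as they were below the median in edgeR's quasi-likelihood test, so their signs changed with the shift of the TPM values. With 1 library left out, the log2 fold change ranged from -0.38 to 0.40 for Col5a3, from -0.31 to 0.17 for Col6a1, from -0.20 to 0.11 for Col13a1, from -0.17 to 0.083 for Col4a2, from -0.15 to 0.11 for Col18a1 and from -0.064 to 0.22 for Col4a1. Leaving out Fpn-LKO replicate 1 moved Col3a1 from 0.78 to 0.26.

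Deviations from the group means correlated by 0.21, 0.014 and 0.096 for same-numbered libraries, and not every library correlated best with its own number. Such correlations cannot decide whether the replicate numbers of the labels pair the mice. In the fit with a block for the replicate number, the unadjusted count was 2 collagen genes, again Col27a1 and Col6a5. It was 4 companion genes, with Tgfb3 in place of Pdgfrb. The unadjusted p-value of Col27a1 in edgeR's quasi-likelihood test was 0.000514 with that block (adjusted p = 0.499) and 0.0134 without it. The companion count was 6 with DESeq2 (Mmp12 and Thbs1 added) and 3 with exactTest (Thbs1 added, Plod3 and Pdgfrb lost), and in settings added after seeing the data it was 8 of 90 with all genes with at least 1 read, 3 and 4 with limma and 2 to 6 with 1 library left out. Mmp12, Thbs1 and Tgfb3 are named here after their values were seen. Members under 1 CPM rest on few reads, which limits what the test can show for them.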
